A study of Homo sapiens with 12 samples.

Results

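Intermediate filament and cadherin genes, 7 in all, were followed in RNA precipitated from HK2 cells, chosen by Ensembl identifier from the 60708 features of the deposited tables. They are the simple keratins KRT8 (ENSG00000170421), KRT7 (ENSG00000135480), KRT18 (ENSG00000111057) and KRT19 (ENSG00000171345), vimentin (VIM, ENSG00000026025), E-cadherin (CDH1, ENSG00000039068) and N-cadherin (CDH2, ENSG00000170558). All 7 were found and all 7 passed the filter on low counts, which kept 24040 features; CDH1 passed it with counts between 0 and 49. In RefSeq on GRCh38.p14, KRT7 (52233243 to 52255853), KRT8 (52897191 to 52949860) and KRT18 (52948855 to 52952906) lie on chromosome 12 and KRT19 (41523617 to 41528308) on chromosome 17. VIM lies on chromosome 10 (17228241 to 17237593), CDH1 on chromosome 16 (68737292 to 68835537) and CDH2 on chromosome 18 (27932879 to 28177130).

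HK2 is an established line of human kidney epithelial cells, immortalised with papillomavirus genes and derived from the proximal tubule. Every culture, controls included, received 10 µg of plasmid for FLAG-tagged human Arid5a, an RNA-binding protein, so no group lacked it. Cells then had 3 h of IL-17, an inflammatory cytokine, at 200 ng/mL, or of medium control, and lysates went to an antibody against FLAG or to mouse IgG1, the background control. This made 4 groups of 3 libraries: IgG medium, FLAG medium, IgG IL-17 and FLAG IL-17. The values are RNA recovered by an antibody, not RNA of whole cells; a total extract was not analysed here. The labels do not say that replicates were separate cultures, so p-values measure the spread between these libraries, which may be technical.

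Keratins form filaments only as pairs of a type I and a type II chain. KRT8 (type II) and KRT18 (type I) are the basic pair of simple, single-layered epithelia, and KRT7 (type II) and KRT19 (type I) join them in ducts and collecting tubules and in injured tubules. Vimentin is the type III filament of mesenchymal cells, and cultured or regenerating tubule cells also make it. E-cadherin and N-cadherin hold neighbouring cells together at adherens junctions; in human kidney, N-cadherin marks proximal and E-cadherin distal tubule, and exchange of E- for N-cadherin with gain of vimentin is the textbook sign of epithelial-mesenchymal transition.

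RefSeq's table of start sites held entries for 3 of the 7 genes, and the 250 bases before the start are printed for VIM, among the most abundant of the 7, and for both starts of CDH2, whose apparent transcript length differed most between libraries among the 6 genes other than CDH1. Capitals mark a GC box (GGGCGG, either strand) or a TATA box (TATAAA, either strand). All are 5′ to 3′ on the gene's strand, from GRCh38.p14: chr10:17227991-17228240 (plus), chr18:28177131-28177380 (minus) and chr18:28036642-28036891 (minus).
VIM: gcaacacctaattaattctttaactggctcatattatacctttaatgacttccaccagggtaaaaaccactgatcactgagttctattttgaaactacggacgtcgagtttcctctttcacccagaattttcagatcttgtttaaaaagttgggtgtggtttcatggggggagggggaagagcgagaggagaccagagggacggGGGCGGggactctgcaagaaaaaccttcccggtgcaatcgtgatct
CDH2, outer start: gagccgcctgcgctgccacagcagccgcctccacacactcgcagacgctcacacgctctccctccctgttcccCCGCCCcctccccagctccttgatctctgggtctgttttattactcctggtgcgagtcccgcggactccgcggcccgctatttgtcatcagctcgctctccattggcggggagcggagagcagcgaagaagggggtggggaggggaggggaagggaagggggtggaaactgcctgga
CDH2, inner start: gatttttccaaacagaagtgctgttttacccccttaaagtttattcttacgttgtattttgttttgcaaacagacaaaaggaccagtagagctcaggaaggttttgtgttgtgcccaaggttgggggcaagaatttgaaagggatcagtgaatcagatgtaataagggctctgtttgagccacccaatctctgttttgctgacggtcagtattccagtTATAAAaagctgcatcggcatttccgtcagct
The VIM window held 1 GC box and no TATA box, the outer CDH2 window 1 GC box and no TATA box, and the inner one 1 TATA box and no GC box. Of 35116 windows of this length in the table, 42.6% held a GC box and 10.7% a TATA box. The E-box CAGGTG (either strand), a site of Snail and ZEB repressors, was in none of the 3 windows and in 17.5% of all. KRT8, the remaining gene with an entry, is not printed. Its listed start, 52926469 on the minus strand, lies inside the gene as annotated (52897191 to 52949860). The window before that inner start held no GC box, TATA box or E-box, and no window at the outer end of KRT8 was examined. GC content was 46.0% for VIM, 66.0% at the outer and 42.0% at the inner CDH2 start. These matches are a description; precipitated RNA does not show which start was used.

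Library totals ranged from 746911 (IgG medium replicate 1) to 17723136 estimated counts, and were 5365495 or more in the 6 IL-17 libraries. At 740000 counts each, IgG IL-17 replicate 1, IgG medium replicate 2 and FLAG medium replicate 1 held 25429 to 32478 features and the other 9 held 10597 to 21453, so these 3 stand apart, as does the shallow IgG medium replicate 1. Levels between genes are compared in TPM, which is per transcript length and sums to the same total in every library; differences between groups use CPM scaled by TMM, a correction for library composition. Those 2 scales order the groups differently for these genes, and both are given. In such bulk precipitates of a cell line, fewer cells of a type, less RNA per cell and less recovery by the antibody cannot be told apart.

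KRT8, the most abundant of the 7, was among the highest 493 features by TPM in every library. Its TPM was 18.03, 118.99 and 93.7 in IgG medium replicates 1 to 3 and 53.13, 161.64 and 60.89 in FLAG medium. With IL-17 it was 70.22, 43.9 and 34.35 in IgG and 104.24, 74.07 and 33.92 in FLAG. All 4 groups overlapped, and within IgG medium alone the highest library was 6.60 times the lowest. KRT7, its type II relative of ductal epithelia, lay below it in every library. KRT7 TPM was 10.35, 33.28 and 22.6 in IgG medium and 9.72, 54.03 and 18.04 in FLAG medium. With IL-17 it was 23.38, 12.35 and 9.91 in IgG and 26.12, 19.23 and 9.84 in FLAG. FLAG medium replicate 2 was the highest library for both type II keratins.

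KRT18, the type I partner of KRT8, reached 19.93, 49.8 and 34.92 TPM in IgG medium and 27.89, 89.35 and 32.39 in FLAG medium. With IL-17 it was 31.16, 24.26 and 14.79 TPM in IgG and 49.8, 36.57 and 16.95 in FLAG. Its groups overlapped as well, and the shallow IgG medium replicate 1 was low for it but not the lowest. KRT19, the smallest keratin, which lacks most of the tail, was far scarcer: the lowest library was 0, the median 2.20 and the highest 7.99 TPM over the 12. In IgG medium KRT19 was 0, 7.99 and 2.26 TPM and in FLAG medium 1.65, 7.73 and 0.98. With IL-17 it was 3.55, 2.14 and 1.23 TPM in IgG and 3.68, 2.91 and 1.07 in FLAG. The 0 came from IgG medium replicate 1, where a count of 0 still leaves room for 4.02 CPM (3 counts of its total; counting error alone), and the upper end of the 2-sided exact 95% Poisson interval is 4.94 CPM.

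Reads of several of these genes may be shared with other features. RefSeq lists 52 pseudogene symbols for KRT8 and 68 for KRT18, 5 for KRT19, and none of the same form for KRT7, VIM, CDH1 or CDH2. Estimated counts that are not whole show that reads were divided with other features: this was so in 10 of 12 libraries for KRT8, KRT18 and KRT7, in 8 for VIM, in 1 each for CDH1 and CDH2 and in 0 for KRT19. The annotated KRT8 and KRT18 genes also overlap by 1006 bases, and no source used here says if reads were counted by strand. Division of reads did not follow the pseudogene symbols, as KRT7 and VIM had none and KRT19 had 5. The levels of the genes concerned are uncertain to that extent, and how many reads were shared was not tested.

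VIM was the second most abundant of the 7 and lay below KRT8 in all 12 libraries. Its TPM was 14.47, 94.33 and 64.32 in IgG medium and 32.14, 146.16 and 47.35 in FLAG medium. With IL-17 it was 60.61, 39.59 and 30.12 in IgG and 91.37, 53.36 and 27.33 in FLAG. The same libraries were high and low as for KRT8, with FLAG medium replicate 2 at the top and IgG medium replicate 1 at the bottom. Vimentin, a filament of mesenchymal cells, was thus second to an epithelial keratin in each group mean.

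N-cadherin exceeded E-cadherin in every library. CDH2 TPM was 8.64, 23.09 and 14.57 in IgG medium and 4.79, 23.86 and 11.93 in FLAG medium. With IL-17 it was 6.89, 4.17 and 4.17 in IgG and 9.2, 4.88 and 3.37 in FLAG. In IgG all 3 IL-17 libraries were below all 3 medium libraries on this scale, which was not so in FLAG. CDH1 had estimated counts of 0, 49 and 0 in IgG medium, 15, 7 and 0 in FLAG medium, 30.34, 1 and 25 in IgG IL-17 and 13, 19 and 20 in FLAG IL-17. Its TPM was listed at 0 in 4 libraries, had a median of 0.08 and exceeded 1 in IgG medium replicate 2 (3.07) and IgG IL-17 replicate 1 (2.05). Of the simple epithelial markers among the 7, KRT8, KRT18 and KRT7 were therefore present in all 12 libraries, KRT19 was low and in 11 of 12, and CDH1 was at or near 0 in most. The other epithelial, mesenchymal, endothelial and leukocyte markers were not analysed here, since the reference pairs no symbol with the files' identifiers.

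**Figure D1:**
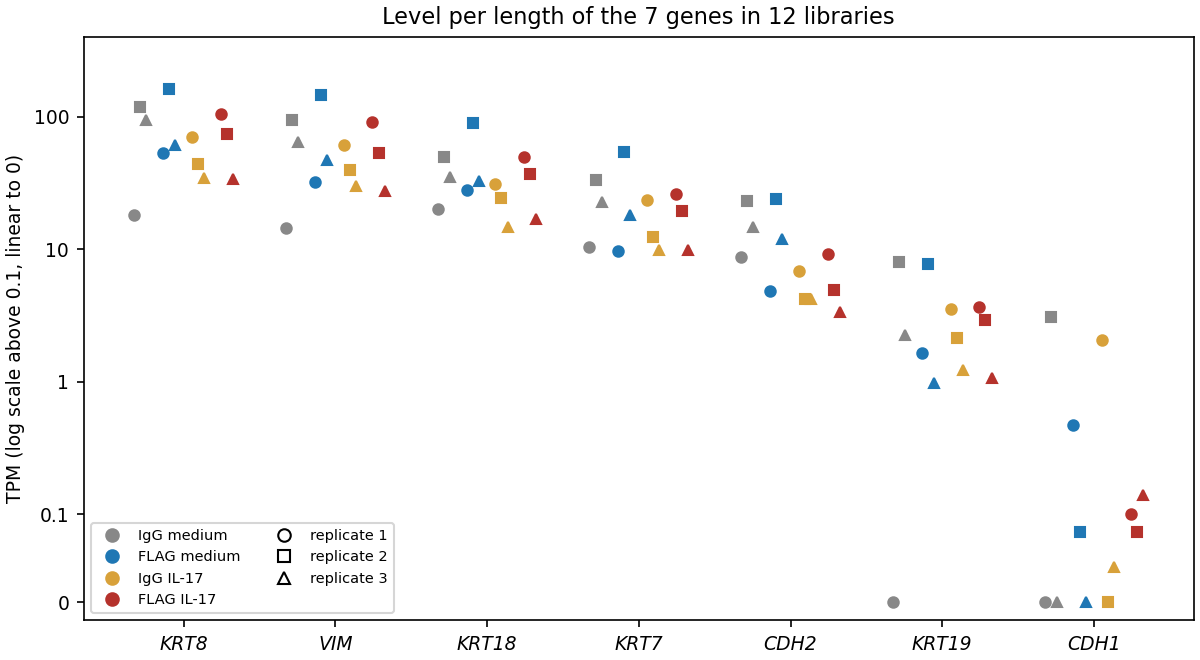
TPM of the 7 genes (x axis) in each of 12 libraries, on an axis that is logarithmic above 0.1 and linear down to 0, coloured by group with a shape per replicate. KRT8 and VIM lead, KRT18 and KRT7 follow, CDH2 and KRT19 are lower, and CDH1 lies at or below 0.14 TPM in 9 libraries and between 0.47 and 3.07 in 3.

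The order KRT8, VIM, KRT18, KRT7, CDH2, KRT19, CDH1 held in nearly all libraries. KRT8 was above VIM, KRT18 above KRT7, KRT7 above CDH2 and CDH2 above KRT19 in 12 of 12. VIM was above KRT18 in 11, the exception being IgG medium replicate 1, and KRT19 above CDH1 in 11, with both at 0 in that library. The spread over libraries of 1 gene was nevertheless wide (KRT8 averaged 72.3 ± 41.4 TPM and VIM 58.4 ± 36.9, SD, n = 12), so neighbours in the order are told apart only within a library.

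Ratios within a library do not depend on how libraries are scaled. KRT8 was 1.11 to 1.65 times VIM in TPM over the 12 libraries, a range of 1.49-fold, where KRT8 itself ranged 8.97-fold. In estimated counts the ratio was 0.861 to 1.34 and below 1 in 7 of 12 libraries, so the lead of KRT8 in every library holds per length only. The ratio of KRT8 to its partner KRT18 was 2.04 ± 0.0477 in FLAG IL-17, 1.86 ± 0.0498 in FLAG medium and 2.13 ± 0.278 in IgG IL-17 (SD, n = 3 each). FLAG IL-17 (2.001 to 2.09) and FLAG medium (1.81 to 1.91) did not overlap, a difference without a test that was picked after the ratios were seen. In IgG medium the ratio spread from 0.905 in replicate 1, which held 233 KRT8 and 208 KRT18 counts, to 2.68 in replicate 3. IgG IL-17 (1.81 to 2.32) lay within that range, so the treatments overlapped in IgG. KRT7 stood at 0.286 to 0.386 times VIM in 11 libraries and at 0.715 in IgG medium replicate 1. That shallow library thus stood apart in both ratios. KRT8 over KRT7 was looser, from 1.74 there to 5.47 in FLAG medium replicate 1.

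Vimentin against N-cadherin differed between treatments on TPM. VIM was 8.80, 9.49 and 7.22 times CDH2 in TPM in IgG IL-17 and 9.93, 10.9 and 8.11 times in FLAG IL-17. In medium it was 1.68, 4.09 and 4.42 times in IgG and 6.71, 6.13 and 3.97 times in FLAG. The 6 IL-17 libraries (7.22 to 10.9) lay above the 6 medium libraries (1.68 to 6.71) without overlap. This ratio was singled out after its values were seen among 10 and has no test. In estimated counts, which do not divide by length, the ratio ran from 3.84 to 5.30 with IL-17 and from 2.29 to 4.197 in medium, so the groups overlapped. The apparent transcript length of CDH2 (count per TPM, relative to the median of 2658 features in that library) moved too, from 0.738 in IgG medium replicate 1 and 1.04 in IgG medium replicate 2 to 2.04 in FLAG medium replicate 1, and lay at 1.60 to 1.81 in the 6 IL-17 libraries. For VIM this length varied 1.38-fold over the 12 and for CDH2 2.76-fold. The part of this length and of depth in the TPM ratio was not tested.

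**Figure D2:**
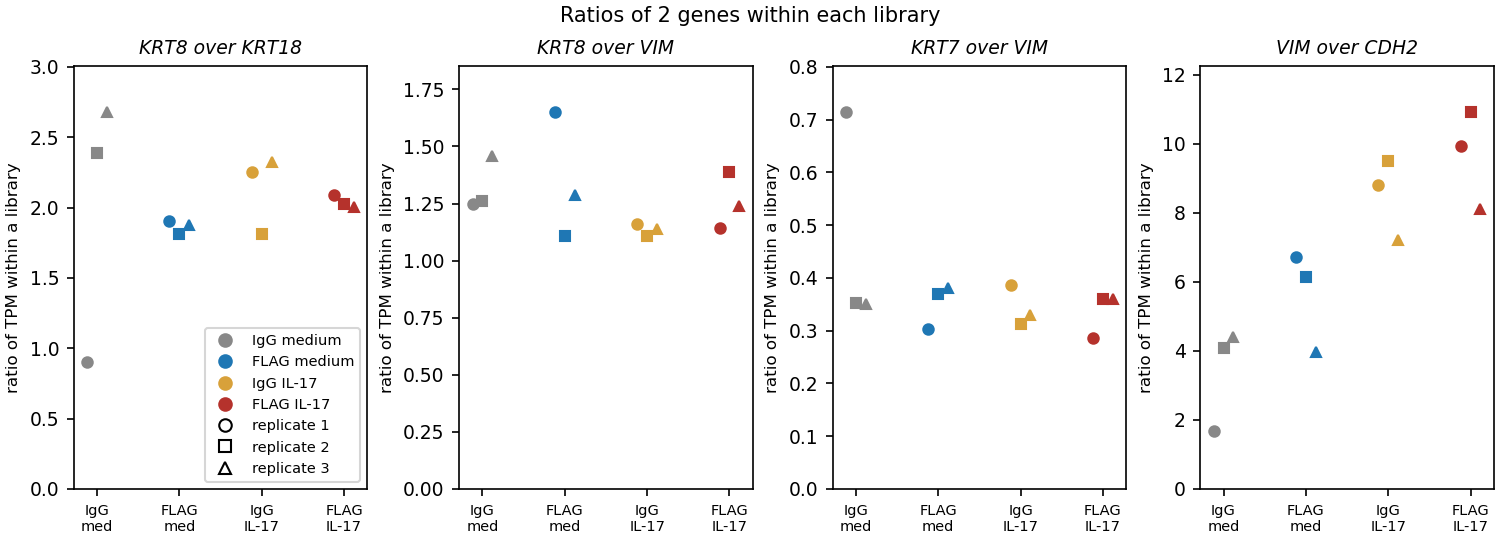
Ratio of TPM of 2 genes within each library, by group (x axis), 1 point per library with a shape per replicate. KRT8 over KRT18 and KRT7 over VIM depart most in IgG medium replicate 1, KRT8 over VIM lies between 1.11 and 1.65, and VIM over CDH2 lies at 7.22 or more in the IL-17 libraries and at 6.71 or less in medium.

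The first comparison asks whether these RNAs were enriched by FLAG-Arid5a over IgG in medium. None of the 7 passed the test: edgeR called 0 of 7 at an adjusted p under 0.05, where it called 0% of all features, and 0 of 7 had an unadjusted p under 0.05, against 6.56% of features. KRT8 had 494, 350 and 736 scaled CPM in IgG and 286, 627 and 608 in FLAG, which overlap, for a log2 fold change of -0.06 ± 0.56 (SE, edgeR adjusted p = 1). VIM had 437, 381 and 561 against 213, 728 and 619, a log2 fold change of 0.18 ± 0.57 (SE, edgeR adjusted p = 1). The other 5 ran from -0.40 (KRT7) to -0.07 (CDH2), and the median of the 7 was -0.11 beside 0.20 over all features. Libraries did not overlap in 0 of 7 higher and 0 lower, against 5.07% and 1.11% of features. The 95% interval for KRT8 reached from -1.20 to 1.09, so a change within those bounds cannot be told from none.

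With IL-17, scaled CPM of 6 of the 7 was higher on average in FLAG than in IgG, and none passed the test. KRT8 had 449, 742 and 799 scaled CPM in IgG and 1107, 1205 and 1034 in FLAG, a log2 fold change of 0.75 ± 0.56 (SE, edgeR adjusted p = 0.923). KRT18 had 173, 360 and 306 against 479, 555 and 446 (log2 fold change 0.82 ± 0.56, SE, edgeR adjusted p = 0.923). VIM had 467, 825 and 851 against 1200, 1107 and 1007, and KRT7 had 134, 203 and 212 against 267, 319 and 283. For these 4 genes every FLAG library exceeded every IgG library. KRT19 (0.69), CDH2 (0.45) and CDH1 (-0.52) had overlapping libraries. So 4 of 7 did not overlap upward and 0 downward, where 14.6% and 12.3% of all features did so. No feature was called here (0%), and 0 of 7 had an unadjusted p under 0.05 against 2.81% of features. The median of the 7 was 0.66 and that of all features -0.33. On CPM of library totals 0 of 7 were free of overlap, where 3.58% of features were apart upward and 11.6% downward. On TPM it was again 0 of 7, beside 0.341% and 6.07% of features. With RLE or upper-quartile scaling KRT8, KRT7, KRT18 and VIM were again apart upward, beside 7.95% and 8.04% of features.

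The next comparison was that of IL-17 with medium among IgG libraries, the RNA recovered without the antibody against FLAG. Estimated counts were 5365495 to 15837845 under IL-17 and 746911 to 6118339 in medium, so treatment and depth can hardly be told apart here. The edgeR test called 0 of 7, beside 0.0125% of features, and 0 of 7 had an unadjusted p under 0.05 beside 5.57%. VIM had the largest log2 fold change, 0.64 ± 0.57 (SE, edgeR adjusted p = 1), from the IgG values given above. KRT19 followed at 0.63, KRT8 at 0.33, KRT7 at 0.28, KRT18 at 0.06 and CDH2 at 0.02, and CDH1 was at -0.04. Libraries overlapped for all 7 on TMM-scaled CPM, while 9.69% of features were apart upward and 1.93% downward. VIM was apart upward with RLE scaling, as were 9.2% of features, and on CPM of library totals, as were 7.23%. On TPM, CDH2 alone was apart, downward (3.98% of features on that scale), with a limma log2 fold change of -1.37 on log2(TPM + 1) and an adjusted p of 0.79.

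Among FLAG libraries the keratins and vimentin had the widest differences of the 7 genes between IL-17 and medium. Depth differed too, with 13653406 to 17723136 estimated counts under IL-17 and 2402395 to 7563477 in medium. Treatment and depth therefore cannot be told apart in this comparison. KRT7 had 53.2, 173 and 117 scaled CPM in medium and 267, 319 and 283 with IL-17, a log2 fold change of 1.34 ± 0.54 (SE, edgeR adjusted p = 0.457). KRT8, with 286, 627 and 608 in medium and 1107, 1205 and 1034 with IL-17, came to 1.14 ± 0.56 (SE, edgeR adjusted p = 0.457). The IL-17 libraries of both type II keratins lay above all medium libraries. KRT19 rested on few counts: 4.16, 20.5 and 8.05 scaled CPM in medium became 31.8, 38.7 and 22.8, a log2 fold change of 1.495 ± 0.73 (SE, edgeR adjusted p = 0.457). KRT18 (0.98 ± 0.56, SE) and VIM (1.09 ± 0.58, SE) had edgeR adjusted p of 0.471 and 0.464. Both cadherins overlapped between treatments, CDH2 at 0.53 and CDH1 at -0.17.

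Thus 5 of 7 did not overlap upward and 0 downward, where 17.3% and 11% of features did so, and edgeR called 0 of 7 where it called 0.225% of features. At an unadjusted p under 0.05 edgeR had 1 of 7, KRT7, beside 10.9% of features. The median of the 7 was 1.09, beside -0.29 over all features. DESeq2, as an alternative, called 2 of 7, KRT8 (log2 fold change 0.68, adjusted p = 0.0395) and KRT7 (0.91, adjusted p = 0.0477), where it called 4.28% of features. Over all 23 alternatives the adjusted p ran from 0.0395 to 0.829 for KRT8 and from 0.0477 to 0.832 for KRT7. On TPM the direction turned: limma on log2(TPM + 1) gave -0.33 for KRT8, -0.31 for KRT7, -0.45 for KRT18, -0.09 for KRT19, -0.24 for VIM and -0.94 for CDH2, with adjusted p from 0.508 to 0.949. The median of all features was -0.45 there, level with KRT18, above CDH2 and below the other 4. With log2(TPM + 0.1) the median was -1.09, and KRT18 (-0.46) and CDH2 (-1.04) lay above it, so their place depends on the pseudocount. On CPM of library totals 0 of 7 were apart, where 3.29% of features were apart upward and 15.7% downward, and on TPM 0 of 7, beside 0.749% and 24.6%. With RLE or upper-quartile scaling 4 were apart upward, KRT19 no longer among them, beside 8.19% and 10.1% of features. Scaling also moved the median of all features, to -0.89 by DESeq2, and KRT8 and KRT7 lay above it there.

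**Figure D3:**
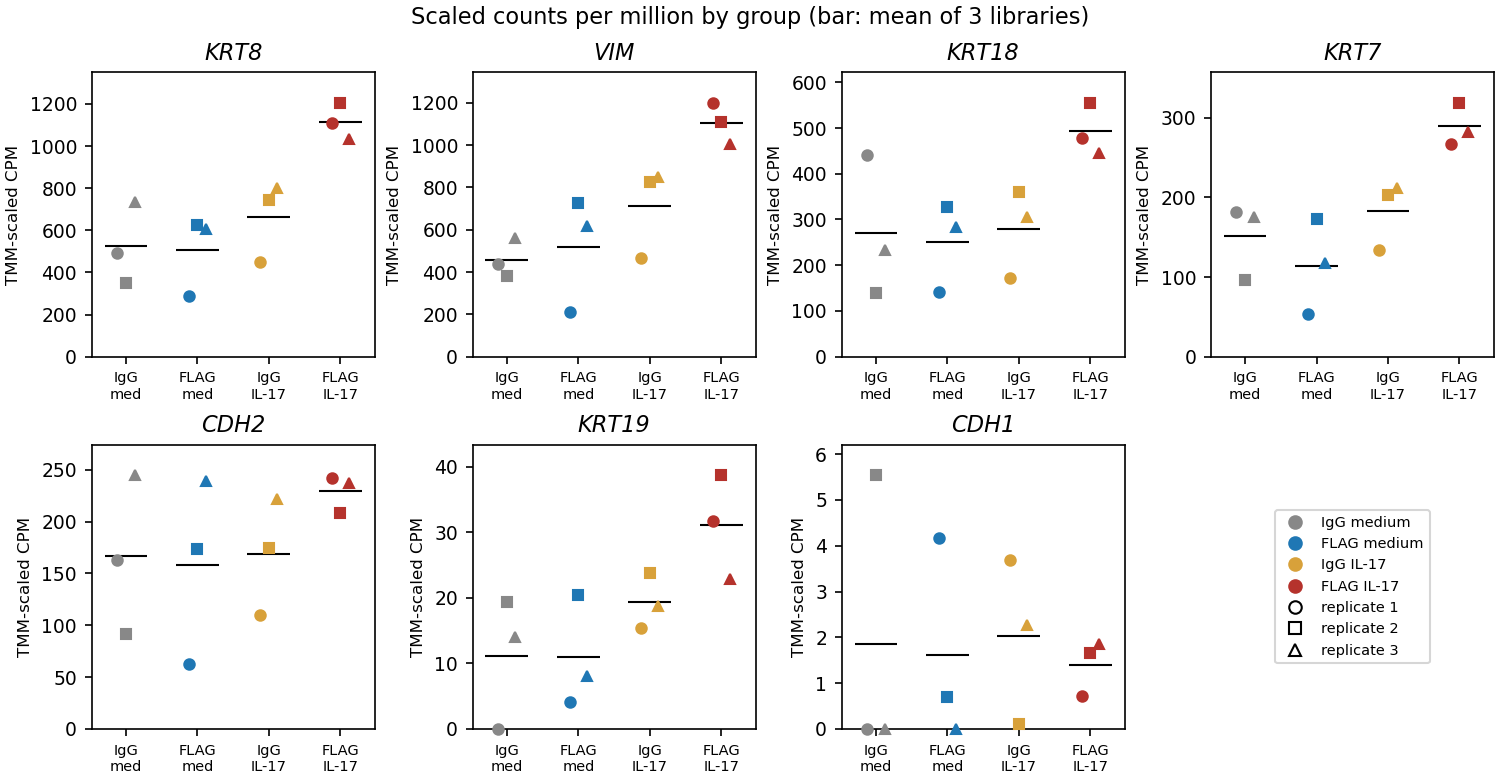
TMM-scaled CPM of each gene in each library, by group (x axis), with the mean of 3 libraries as a bar and the axis from 0. On this scale the 3 FLAG IL-17 libraries of KRT8, VIM, KRT18 and KRT7 lie above every library of the other groups. For KRT18 the margin is small, 446 in FLAG IL-17 replicate 3 against 441 in IgG medium replicate 1. The share of all features above all 3 other groups was not computed, so the 4 genes are not shown to be unusual. On this scale 14.6% of features were apart upward from IgG IL-17 alone and 17.3% from FLAG medium alone. On CPM of library totals or TPM, 0 genes lie apart upward from IgG IL-17 or from FLAG medium.

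Averaged over both treatments, FLAG over IgG ran from -0.45 (CDH1) to 0.40 (VIM) on the log2 scale, with edgeR adjusted p of 0.992 for all 7. The edgeR test called 0 of 7 (0% of features), and 0 of 7 against 4.14% of features had an unadjusted p under 0.05. The change of that difference with IL-17 was largest for KRT7, 1.06 ± 0.75 (SE, edgeR adjusted p = 0.767), and smallest for CDH1, -0.13 ± 2.73 (SE, edgeR adjusted p = 0.993). Again 0 of 7 were called (0% of features), and 0 of 7 had an unadjusted p under 0.05, beside 7.35%. The change was 0.93 for KRT18, 0.87 for KRT19, 0.81 for KRT8, 0.52 for CDH2 and 0.45 for VIM. The 4 comparisons share libraries, so their values for a gene are not independent of each other.

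**Figure D4:**
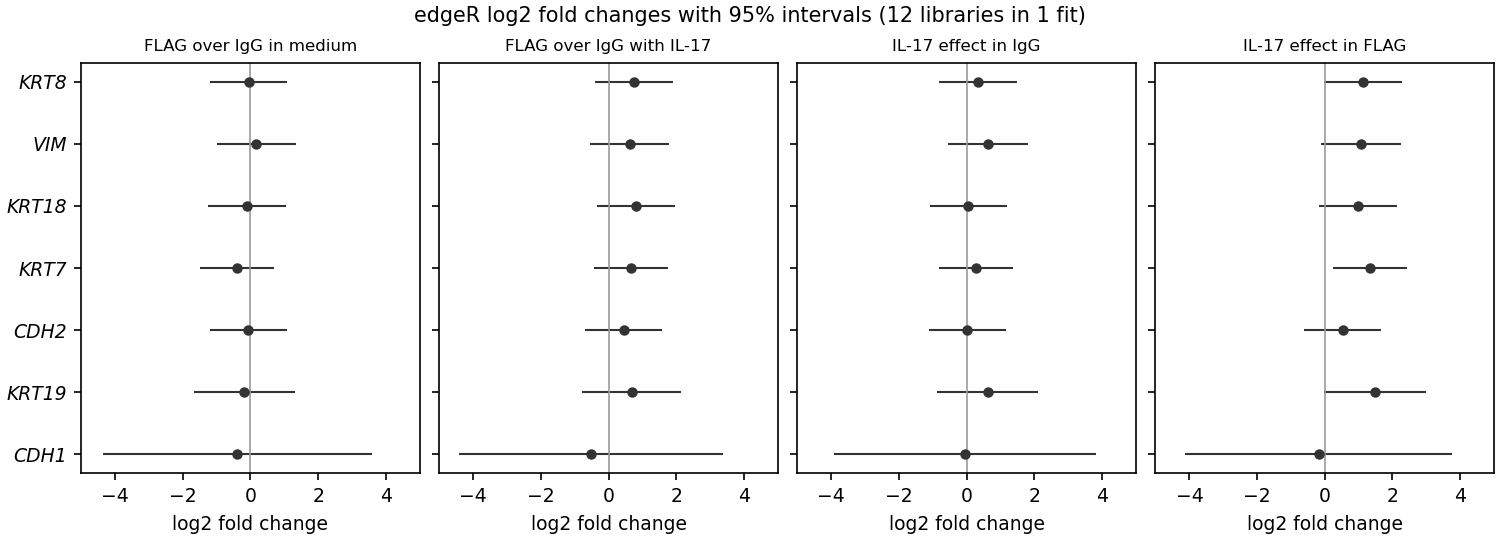
Log2 fold changes (points) with 95% intervals (lines) of the 7 genes in 4 comparisons, from 1 edgeR fit of 12 libraries. Every interval crosses 0 except that of KRT7 for the IL-17 effect in FLAG (0.24 to 2.44), and that of CDH1 is the widest in each comparison.

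E-cadherin was highest in the libraries that stand apart by their number of features. CDH1 stood at 5.65, 8.01 and 6.24 CPM of the library total in IgG IL-17 replicate 1, IgG medium replicate 2 and FLAG medium replicate 1, the 3 libraries richest in features at equal depth. Exact 95% Poisson intervals, which cover counting error only, were 3.77 to 7.98, 5.92 to 10.6 and 3.49 to 10.3. In the other 9 libraries CDH1 was between 0 and 1.58 CPM. The lowest of the 3 exceeded the highest of the 9, although the former come from 3 different groups. The share of all features split in this way was not computed, so the split is not shown to be particular to CDH1. N-cadherin showed no such split: 94.5 to 166 CPM in the 3 and 103 to 251 in the 9. Nor did the keratins or VIM, whose ranges overlapped. These genes had more counts than CDH1 in most libraries (77 to 4398 for CDH2). Features at the level of CDH1 were not compared, so the contrast is not one at like counts. The apparent length of CDH1 also ranged from 0.207 of the median feature in IgG IL-17 replicate 1 to 1.71 in IgG IL-17 replicate 3, on at most 49 counts, and what made up these counts was not tested. Without IgG medium replicate 2 the remaining IgG medium libraries held 0 counts of CDH1, so a fold of CDH1 fitted against them depends on the prior count and is no bound.

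**Figure D5:**
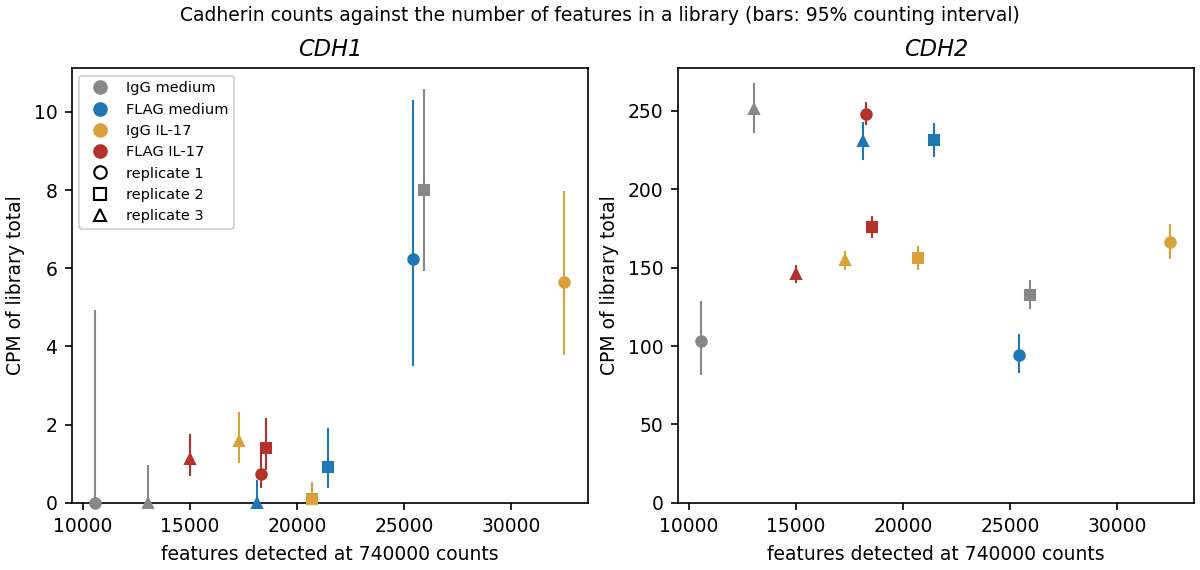
CPM of the library total for CDH1 and CDH2 (y axes from 0) against the number of features at 740000 counts, 1 point per library with exact 95% Poisson intervals. CDH1 is at 5.65 to 8.01 CPM in the 3 libraries at 25429 features or more and at 1.58 or less in the other 9. CDH2 shows no such step, but had at least 77 counts in every library, where CDH1 had at most 49.

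Across the 12 libraries KRT8 was followed most closely by VIM among the 7 (Pearson r = 0.960 and Spearman rho = 0.965 of log2 scaled CPM), which ranked 12 among 24039 other features for likeness to KRT8. KRT7 ranked 76 (r = 0.933), CDH2 388 (r = 0.875) and KRT18, the partner of KRT8 in the filament, 541 (r = 0.853). KRT19 had a lower r (0.481, rank 5248), but its Spearman rho of 0.755 was above the 0.713 of CDH2, so its place depends on the measure. For KRT7 and KRT18 rho was 0.937 and 0.839. CDH1 had r = -0.286 (rank 15285) and rho = -0.245. The 2 features most like KRT8 were ENSG00000125753.14 (r = 0.982) and ENSG00000148303.17 (r = 0.971), which the files do not pair with names. Without FLAG medium replicate 1 and IgG medium replicate 2, the libraries farthest from the median of KRT8, r was 0.934 for VIM, 0.871 for KRT7, 0.696 for CDH2, 0.689 for KRT18, 0.605 for KRT19 and 0.250 for CDH1. These values describe 12 libraries that share depth, composition and group, and carry no test.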

How the data were processed

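The 12 libraries hold RNA pulled down from HK2 lysates by anti-FLAG or mouse IgG1, in 4 groups of 3 named by the sample titles. A SMART-Seq kit for scarce RNA was used, per the labels' protocols. The submitters' processing notes name RSEM 1.3.1, STAR 2.7.9, R 4.2.0 and DESeq2 1.36.0 with build GRCh38, and give no roles. The authors deposited estimated counts per Ensembl gene. A second deposited table, named for FPKM, holds TPM, since all its columns have the same sum. Members came from the identifiers of the rule; members and lists were chosen with earlier results of these data known. A further list of 49 related genes was not tested, because 0 reference genes carry an Ensembl identifier.

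Estimated counts were rounded (18% of those above 0 were not whole), passed through filterByExpr at a minimum count of 10 and TMM scaling. The 24040 features kept entered 1 edgeR model (version 4.0.16, R 4.3.3) of all 12 libraries with quasi-likelihood tests, with Benjamini-Hochberg adjustment over all features and a call at 0.05. The procedure was also run on simulated data, and the share of changes it recovered is not given here. Standard errors are the size of the fold change over the root of the F statistic, and 95% intervals follow from them. The common dispersion was 0.953. Likeness used log2 CPM with a prior count of 2. All 7 members are named whatever their result. Alternatives were RLE, library-size and upper-quartile scaling, no filter, a filter of 50 counts in 3 libraries, DESeq2 1.42.0, limma 3.58.1 on TPM logged after adding 1 or 0.1, only the groups compared, the replicate number as a block, and each library omitted in turn. Leaving out together the 3 libraries richest in features was chosen after seeing the data.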

Additional observations from a re-analysis of the deposited data

How the results depend on the processing

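In each comparison limma and edgeR called 0 of the genes they held under every alternative run, the 12 fits omitting 1 library among them, and called 0 to 0.566% of all features. DESeq2 called 2 of 7 in the IL-17 effect in FLAG (4.28% of features). Signs varied: of 944 fold changes from alternatives, 126 had the other sign, 39 of them on TPM and 22 for CDH1, and none of these was called. CDH1 was not kept by the filter of 50 counts, nor with only the groups compared for FLAG over IgG in medium and IL-17 in IgG, which leaves 6 genes there. Fits of only the groups compared equal the full fit for the mean and the change. Deviations from the group means correlated above 0.1 in 9 of 18 same-numbered pairs (r from -0.14 to 0.468) and in 9 of 36 others (-0.48 to 0.488); all 6 pairs of replicate 3 libraries lay between 0.213 and 0.392. The labels do not say that the numbers pair libraries, so the main fit did not pair them. These correlations cannot decide it, since some same-numbered pairs exceeded 0.1 and others did not. The replicate block turned CDH1 to 0.32 in the change, 0.29 under IL-17 in IgG and 0.61 in that in FLAG. It changed no call among the 7. Over all features the block called 0.566% for IL-17 in FLAG, beside 0.225% in the main fit. For IL-17 in IgG it called 0.137% beside 0.0125%, and for FLAG over IgG with IL-17 both called 0%. Depth limits CDH1 and KRT19: with 0 counts, the shallowest library still leaves room for 4.02 CPM (3 counts). The cause of each turn was not tested.

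Log2 fold changes with the other sign follow. For FLAG over IgG in medium, KRT8 was 0.02 with RLE factors, 0.24 with library size only, 0.03 without a filter, 0.02 with 50 counts, 0.03 by DESeq2 and 0.23 with only the groups compared. KRT18 was 0.37 with library size only and 0.17 with only the groups compared, which gave 0 for KRT19. CDH2 was 0.19 with library size only, 0.01 without a filter and 0.21 with only the groups compared, and VIM was -0.06 with upper-quartile scaling. On log2(TPM + 1) and log2(TPM + 0.1), KRT8 was 0.44 and 0.46, KRT7 0.1 and 0.09, KRT18 0.4 and 0.41, and KRT19 0.21 and 0.98. For the mean, RLE factors gave 0 for KRT7, upper-quartile scaling -0.14 for KRT7 and -0.05 for CDH2, and TPM -0.11 and -0.12 for CDH2. For the change, TPM gave -0.02 with either pseudocount for KRT8, -0.13 and -0.89 for KRT19, -0.14 and -0.15 for VIM and, with 1 added, 0.04 for CDH1.

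For the IL-17 effect in IgG, KRT18 was -0.13 with RLE factors and by DESeq2, -0.09 with 50 counts and -0.37 with upper-quartile scaling. CDH2 was -0.09 with RLE factors, -0.03 with library size only, -0.24 with upper-quartile scaling, -0.07 with 50 counts and -0.08 by DESeq2, and KRT7 was -0.03 with upper-quartile scaling. On TPM, KRT8 was -0.31 with either pseudocount, KRT7 -0.46 and -0.48, KRT18 -0.52 and -0.54, VIM -0.1 and -0.09, and CDH2 -1.37 and -1.51. For that in FLAG, KRT8 was -0.33 and KRT7 -0.31 with either pseudocount, KRT18 -0.45 and -0.46, KRT19 -0.09 and -0.05, VIM -0.24 and -0.25, and CDH2 -0.94 and -1.04.

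Without the 3 libraries richest in features, FLAG over IgG in medium was 0.03 for KRT8, 0.67 for KRT19, 4.79 for CDH1 and 0.03 for CDH2. CDH1 was 0.22 for FLAG over IgG with IL-17, 2.51 for the mean, 6.44 under IL-17 in IgG and 1.88 for that in FLAG, CDH2 was -0.04 under IL-17 in IgG, and the change was -0.13 for KRT19 and -0.07 for VIM. Leaving out single libraries, FLAG over IgG in medium ran from -0.15 to 0.27 for KRT8, -0.31 to 0.39 for KRT18, -0.97 to 0.49 for KRT19, -0.07 to 0.57 for VIM, -2.62 to 6.95 for CDH1 and -0.32 to 0.36 for CDH2. The mean ran from -0.04 to 0.32 for KRT7, -0.14 to 0.59 for KRT19, -1.6 to 3.19 for CDH1 and -0.03 to 0.4 for CDH2. CDH1 ran from -1.4 to 0.24 for FLAG over IgG with IL-17, -7.52 to 2.05 for the change, -0.77 to 7.13 under IL-17 in IgG and -1.51 to 1.89 for that in FLAG. For the IL-17 effect in IgG, KRT18 ran from -0.24 to 0.54 and CDH2 from -0.19 to 0.37. Where the remaining IgG medium libraries held 0 counts of CDH1, its fitted fold depends on the prior count and is no bound.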
